A study of Mus musculus with 25 samples.

Results

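The 7 genes described here, Treml4, Adgre4, Ceacam1, Spn, Ace, Pou2f2 and Eno3, are transcripts known to mark non-classical monocytes. They were taken by symbol from a table of raw read counts that holds 24537 gene models, and all 7 were among the 16961 genes with enough counts to be tested. RNA had been sequenced from 25 libraries, each of 200 sorted cells of C57BL6 mice. Blood monocytes, sorted on CD115 and Ly6C, gave 3 libraries from mice on a high fat diet (HFD, 45% fat) and 6 from mice on a control diet (CD, 10% fat). White adipose tissue, called eWAT in the titles, gave 4 populations with 2 HFD and 2 CD libraries each. These were pop1 (alpha, Tim4+ with low MHCII), pop2 (beta, Tim4+ with high MHCII), pop3 (delta, Tim4- CD11c- with high MHCII) and pop4 (gamma, Tim4- CD11c+ MHCII+).

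The design bounds every value below. Collagenase, with flavopiridol added, was used to free the adipose cells, and the labels describe no such step for blood, so tissue, gate and handling cannot be told apart when monocytes are set against adipose cells. All adipose control libraries carry CD-CD in their titles, whereas 3 of the control monocyte libraries are titled CD and 3 CD-CD. In adipose tissue, diet and title series therefore cannot be told apart. The labels give no genotype beyond the strain, no age, no length of the diets and no statement of whether a library stands for 1 animal or a pool, so p-values measure the spread between these libraries, which may be technical. The monocyte label names Ly6C without a sign, and the gate as written can hold classical and non-classical monocytes.

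In mice, classical monocytes carry much Ly6C, leave the bone marrow and enter inflamed tissue. Non-classical monocytes carry little Ly6C, depend on the nuclear receptor Nr4a1, and crawl along the inner wall of small vessels. White adipose tissue holds resident macrophages and, in obesity, further macrophages that descend from blood monocytes. Among the 7 genes, Treml4, Adgre4, Ceacam1 and Spn encode surface receptors, Ace an ectoenzyme, Pou2f2 a transcription factor and Eno3 a glycolytic enzyme.

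Library totals ranged from 3.75 to 9.34 M counts, so that 3 counts, taken as a detection floor, equal 0.341 to 0.698 in the unit CPM used throughout, which scales counts by library total and TMM factor. Floors cover counting error only. Timd4, the gene of Tim4, averaged 438 ± 156 CPM in pop1 and 312 ± 252 CPM in pop2, against 0.247 ± 0.249 CPM in monocytes (SD, n = 4, 4 and 9). Itgax, which encodes CD11c, averaged 185 ± 5.03 CPM in pop4 and 20.1 ± 18.4 CPM in pop3 (SD, n = 4 each). Ly6c2, one of the genes of Ly6C, averaged 499 ± 74.3 CPM in monocytes, with no monocyte library under 434 CPM. Genes of olfactory and vomeronasal receptors, taken as background, summed to 93.1 to 255 CPM in monocytes and to 79.5 to 683 CPM in adipose libraries.

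Blood monocytes carried more of most of the 7 transcripts than the adipose populations did. A gene was called where edgeR's quasi-likelihood test gave an adjusted p under 0.05 (Benjamini-Hochberg over all tested genes). Against pop1, 5 of 7 members were higher in monocytes, where 13.7% of all tested genes were higher. Against pop2, 5 were higher, with a background of 15.3%. Against pop3, 6 were higher, with a background of 9.47%, and against pop4, 6 were higher, with a background of 5.3%. No member was lower in monocytes in any of the 4 comparisons, where 19.1%, 24.7%, 15.7% and 7.16% of all genes were lower. The median log2 difference of the 7 was 3.52, 3.09, 3.01 and 3.05 over pop1 to pop4, where the median of all tested genes was -0.29, -0.28, -0.26 and 0.04. Treml4, Adgre4, Ceacam1 and Ace were called against each of the 4 populations. Spn was called against pop1 to pop3, Pou2f2 against pop4 and Eno3 against pop3 and pop4. In bulk libraries of this kind, fewer cells that use a gene and less of its RNA in each cell cannot be told apart.

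**Figure D1:**
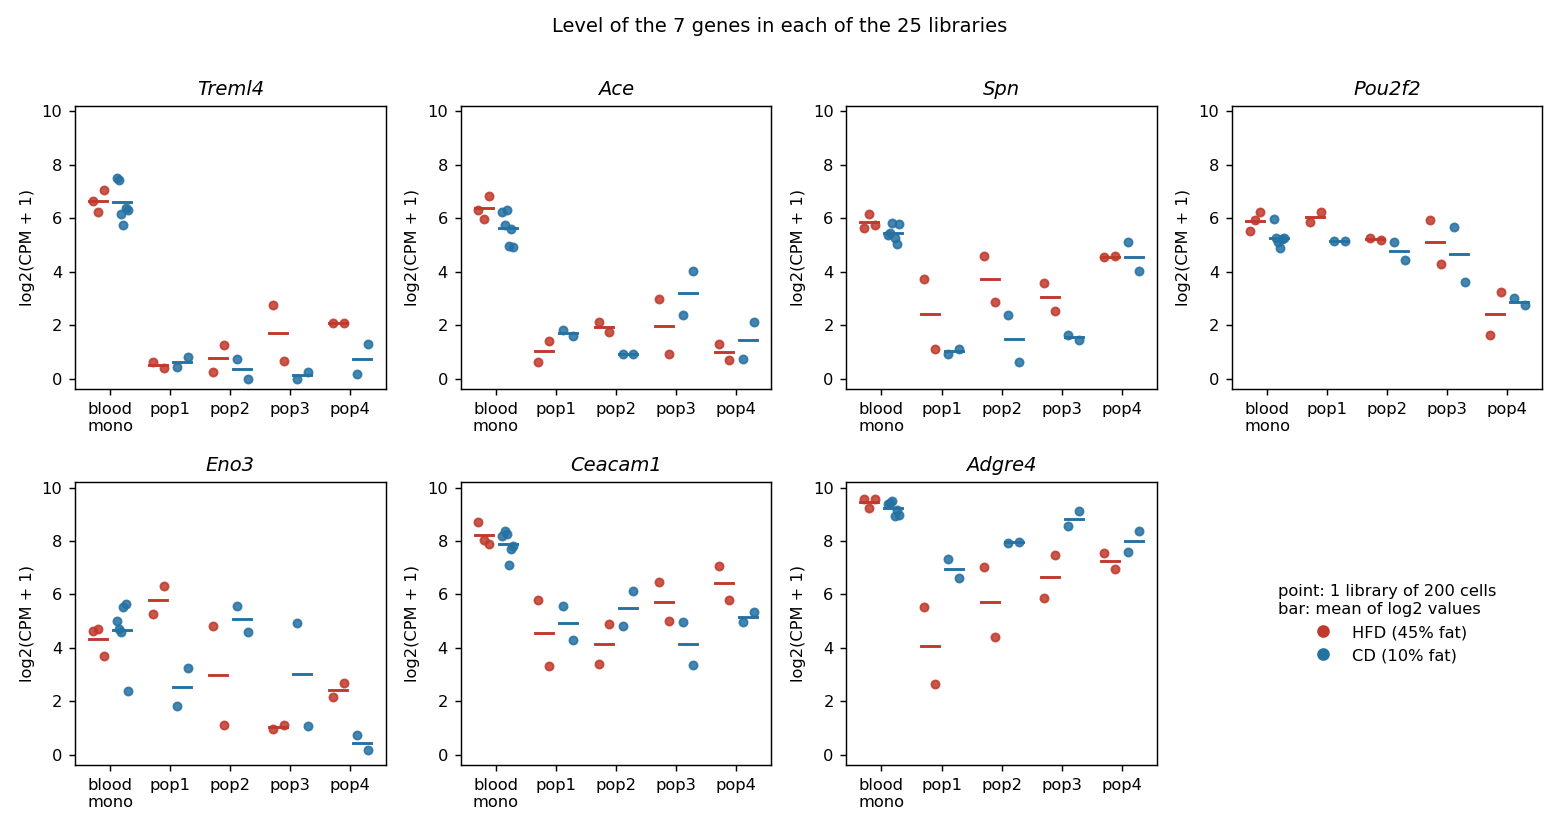
Level of each of the 7 genes in the 25 libraries, as log2(CPM + 1) on the vertical axis, with blood monocytes at the left and pop1 to pop4 to their right; each point is 1 library, HFD left of CD, and bars are means of the log2 values. The monocyte points of Treml4, Ace and Ceacam1 lie above all adipose points, whereas those of Pou2f2 overlap pop1, pop2 and pop3.

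**Figure D2:**
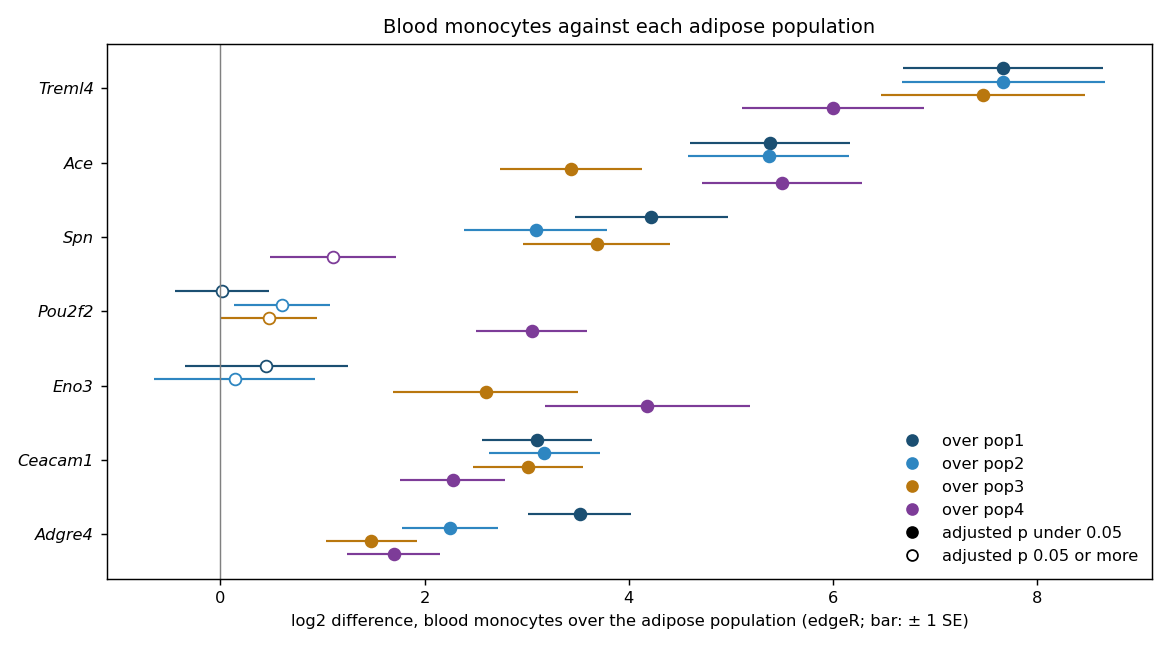
Log2 difference of blood monocytes over each adipose population on the horizontal axis, by gene, with bars of 1 SE; filled points had an adjusted p under 0.05 in edgeR. Treml4 lies between 6.0 and 7.67 and Ceacam1 between 2.28 and 3.17, whereas Pou2f2 is called against pop4 alone, at 3.05.

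The promoters of the 4 genes that were higher in monocytes than in each adipose population are shown because these genes share that pattern. Each window runs from 250 bases before to 50 bases after the start site in RefSeq (build GRCm38.p6), on the strand of the gene, 5′ to 3′. Capitals mark letters searched for on both strands, namely PU.1 (GAGGAA), C/EBP (TTGCNNAA), RUNX (TGTGGT), IRF (GAAANNGAA), KLF (CCACACCC), the octamer (ATGCAAAT) and NBRE (AAAGGTCA), the element that Nr4a1 is known to bind.
Treml4: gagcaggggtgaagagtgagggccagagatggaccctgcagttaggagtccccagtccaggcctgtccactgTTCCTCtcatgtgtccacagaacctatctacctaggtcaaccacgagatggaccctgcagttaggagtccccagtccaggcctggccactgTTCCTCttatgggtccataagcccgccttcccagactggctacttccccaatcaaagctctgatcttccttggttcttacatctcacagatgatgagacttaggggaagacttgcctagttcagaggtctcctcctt
Adgre4: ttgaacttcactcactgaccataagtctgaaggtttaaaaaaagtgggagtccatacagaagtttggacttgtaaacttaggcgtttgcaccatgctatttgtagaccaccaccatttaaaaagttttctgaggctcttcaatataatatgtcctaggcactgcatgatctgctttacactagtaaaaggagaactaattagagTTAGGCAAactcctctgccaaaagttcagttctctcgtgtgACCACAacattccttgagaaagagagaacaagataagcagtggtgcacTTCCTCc
Ceacam1: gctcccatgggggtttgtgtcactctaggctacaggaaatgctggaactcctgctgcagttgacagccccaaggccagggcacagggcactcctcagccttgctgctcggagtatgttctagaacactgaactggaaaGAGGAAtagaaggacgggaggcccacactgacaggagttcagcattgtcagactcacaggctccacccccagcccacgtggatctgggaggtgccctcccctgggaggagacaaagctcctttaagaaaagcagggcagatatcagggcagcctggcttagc
Ace: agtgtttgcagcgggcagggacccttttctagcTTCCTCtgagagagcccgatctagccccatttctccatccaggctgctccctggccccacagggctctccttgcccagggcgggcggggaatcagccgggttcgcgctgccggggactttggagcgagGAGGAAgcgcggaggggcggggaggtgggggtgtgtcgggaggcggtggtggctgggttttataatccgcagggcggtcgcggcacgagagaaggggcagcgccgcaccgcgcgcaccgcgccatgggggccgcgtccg
The windows lie at chr17:48264045-48264344 for Treml4, chr17:55749734-55750033 for Adgre4, chr7:25477576-25477875 for Ceacam1 and chr11:105967698-105967997 for Ace. Ceacam1 lies on the minus strand and the others on the plus strand.

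All 4 printed windows hold the PU.1 letters, as does that of Pou2f2. Ace has a second RefSeq window, at chr11:105974939-105975238, which is not printed and holds none of the 7 motifs. The PU.1 letters thus occur in 5 of 8 member windows, against 28.3% of 32851 RefSeq windows of the same length. Treml4 and Ace hold 2 matches each. The RUNX letters occur in Adgre4 and in Pou2f2, where they end directly before the PU.1 letters, and in 16.8% of all windows. C/EBP letters occur in Adgre4, at a background of 10.8%, and IRF letters in Eno3, at a background of 8.56%. The NBRE, octamer and KLF letters occur in none of the member windows, at backgrounds of 1.51%, 1.74% and 3.56%, and the Spn window holds none of the 7 motifs. A match is a run of letters and not a bound site. The Treml4 window also holds 2 copies of a run of 40 bases, which begin at bases 26 and 117, and a PU.1 match follows each copy. An exact repeat of that length or more occurs in 112 of the 32851 windows (0.341%).

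Treml4 encodes a receptor of the TREM family that pairs with the adaptor DAP12 and binds dying cells. The gene lies on the plus strand of chr17:48264295-48275358 (mm10). In the 9 monocyte libraries its level had a minimum of 52.5, a median of 83.2 and a maximum of 183 CPM. In pop1 the HFD libraries held 0.550 and 0.324 CPM and the CD libraries 0.364 and 0.730 CPM. Pop2 had 0.198 and 1.40 CPM on HFD, against 0.661 and 0 CPM on CD, and pop3 5.67 and 0.569 CPM on HFD, against 0 and 0.188 CPM on CD. Every monocyte library was above every adipose library, as was so for 8.68%, 7.3%, 6.52% and 5.24% of all tested genes over pop1 to pop4, and 8 of the 16 adipose libraries held 3 counts or fewer. Pop4 had 3.20 and 3.21 CPM on HFD, against 0.130 and 1.48 CPM on CD. The log2 difference of monocytes was 7.66 (SE 0.98, adjusted p = 6.15e-06, edgeR) over pop1, 7.67 (SE 0.99) over pop2, 7.47 (SE 1.0) over pop3 and 6.0 (SE 0.89) over pop4. The sizes rest on few adipose counts: the value over pop2 was 9.92 without the pop2 CD replicate 7 and 8.64 without the pop2 HFD replicate 3. Over pop3 it was 8.81 without the pop3 CD replicate 8 and 8.69 without the pop3 HFD replicate 2, and over pop4 7.24 without the pop4 CD replicate 8, all of them called. In the HFD groups alone the call over pop4 was lost (4.96, adjusted p = 0.0575).

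Of the 6 TREM genes tested, 3 were higher in monocytes than in each of the 4 populations, namely Treml4, Trem3 and Treml2. Trem3, an activating receptor of mouse myeloid cells, averaged 127 ± 43.4 CPM in monocytes and 0.193 to 0.689 CPM in the adipose populations. Treml2 averaged 27.9 ± 19.0 CPM in monocytes and 1.16 to 2.70 CPM in the adipose populations. Trem2, a lipid receptor of tissue macrophages, averaged 75.4 ± 39.5 CPM in monocytes and 81.4 to 136 CPM in the adipose populations, and was called in none of the 4 comparisons. Per kilobase of the gene model, Trem3 stood at 122 CPM, Trem2 at 66.2 CPM and Treml4 at 60.4 CPM in monocytes.

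Adgre4 encodes an adhesion G protein-coupled receptor related to F4/80, and lies on the plus strand of chr17:55749984-55853662. It was the most abundant of the 7 per kilobase, at 184 ± 29.0 CPM in monocytes (SD, n = 9). The 9 monocyte libraries had a minimum of 493, a median of 659 and a maximum of 763 CPM. Pop1 held 45.4 and 5.19 CPM on HFD, against 158 and 97.2 CPM on CD, and pop2 131 and 20.2 CPM on HFD, against 245 and 249 CPM on CD. In pop3 the values were 56.7 and 178 CPM on HFD, against 374 and 557 CPM on CD, and in pop4 185 and 124 CPM on HFD, against 192 and 332 CPM on CD. The monocyte libraries were above all libraries of pop1, pop2 and pop4, and overlapped pop3 through 1 CD library. Adgre4 was higher in monocytes by a log2 difference of 3.52 (SE 0.51, adjusted p = 2.67e-05) over pop1 and 2.25 (SE 0.47, adjusted p = 0.00109) over pop2. It was higher by 1.48 (SE 0.45, adjusted p = 0.0204) over pop3 and 1.7 (SE 0.45, adjusted p = 0.0152) over pop4.

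Some of the Adgre4 calls turned on single libraries or settings. The call over pop3 was lost without the pop3 CD replicate 7 (1.37, adjusted p = 0.0783) and without the pop3 HFD replicate 2 (1.19, adjusted p = 0.117). That over pop4 was lost without the pop4 CD replicate 7 (1.53, adjusted p = 0.104) and without the pop4 HFD replicate 3 (1.57, adjusted p = 0.0964). The value over pop1 was 4.69 without the pop1 HFD replicate 2, and that over pop2 was 3.24 without the pop2 HFD replicate 2. With the receptor background as a covariate, the difference was 1.53 (adjusted p = 0.277) over pop2 and 0.92 (adjusted p = 0.521) over pop3. Without the pop2 HFD libraries, which had the fewest counts, it was 1.37 over pop2 (adjusted p = 0.0622). In the CD groups alone, Adgre4 differed from pop3 by 0.38 (adjusted p = 0.311). In the HFD groups alone it was not called over pop3 (2.57) or pop4 (2.17). Of its relatives, Adgre5, the leukocyte receptor CD97, was higher in monocytes (434 ± 50.4 CPM) than in each adipose population (137 to 226 CPM). Adgre1, the gene of F4/80, averaged 390 ± 55.6 CPM in monocytes and 356 to 579 CPM in the adipose populations, and was lower in monocytes than in pop2 (log2 -0.47, SE 0.13, adjusted p = 0.0102).

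Ceacam1 encodes an adhesion receptor that binds its own kind on neighbouring cells and carries inhibitory motifs for the phosphatases SHP-1 and SHP-2. It lies on the minus strand of chr7:25461702-25477625. Monocyte libraries had a minimum of 135, a median of 262 and a maximum of 420 CPM. Pop1 held 53.9 and 9.09 CPM on HFD, against 46.9 and 18.5 CPM on CD, and pop2 9.50 and 28.8 CPM on HFD, against 27.3 and 69.7 CPM on CD. In pop3 the HFD libraries had 86.4 and 31.0 CPM, against 30.4 and 9.23 CPM in the CD libraries. All monocyte libraries were above all adipose libraries, by a narrow gap to the pop4 HFD replicate 2. Pop4 had 132 and 54.0 CPM on HFD, against 30.4 and 39.3 CPM on CD. The log2 difference of monocytes was 3.10 (SE 0.54) over pop1, 3.17 (SE 0.54) over pop2, 3.01 (SE 0.54) over pop3 and 2.28 (SE 0.51) over pop4, with adjusted p of 0.000207, 0.000175, 0.000380 and 0.00410 in edgeR. Over pop1 it was 4.03 without the pop1 HFD replicate 2. In the HFD groups alone it was not called over pop3 (2.34) or pop4 (1.7).

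Reads shared by Ceacam1 and its near copy Ceacam2 could have been split in counting, so the level of each is uncertain to that extent. Ceacam2 averaged 0.505 ± 0.297 CPM in monocytes and 0.0635 to 1.15 CPM in the adipose populations. Ptpn6, which encodes SHP-1, was higher in monocytes (341 ± 45.4 CPM) than in each adipose population (126 to 194 CPM). Ptpn11, which encodes SHP-2, averaged 61.3 ± 21 CPM in monocytes and 73.8 to 105 CPM in the adipose populations, with no call. Havcr2, the gene of TIM-3, reported to bind CEACAM1, was higher in monocytes (40.6 ± 24.4 CPM) than in each population (1.13 to 10.8 CPM). Of the 9 tested genes of a list of CEACAM genes and partners, 4, 4, 4 and 5 were higher in monocytes than in pop1 to pop4, and 0, 2, 0 and 0 lower.

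Endothelial cells and neutrophils also use Ceacam1. The 10 endothelial genes summed to 1.40 to 66.0 CPM in monocytes and 7.57 to 157 CPM in adipose libraries. In monocytes Flt1 averaged 23.4 CPM and Vwf 2.31 CPM, and the other 8 averaged under 1 CPM. The 10 neutrophil genes summed to 88.5 to 199 CPM in monocytes and 6.79 to 352 CPM in adipose libraries. Csf3r averaged 136 CPM, Elane 7.23 CPM and Ltf 1.1 CPM in monocytes, and the other 7 averaged under 1 CPM. The part of such cells in the Ceacam1 result was not tested.

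Spn encodes CD43, a sialomucin of leukocytes used in flow cytometry to tell non-classical from classical mouse monocytes. It lies on the minus strand of chr7:127133694-127137823. Its monocyte levels had a minimum of 31.5, a median of 48.6 and a maximum of 70.6 CPM. Pop1 held 12.4 and 1.14 CPM on HFD, against 0.909 and 1.17 CPM on CD. Pop2 had 23.1 and 6.28 CPM on HFD, against 4.19 and 0.523 CPM on CD, and pop3 10.9 and 4.78 CPM on HFD, against 2.13 and 1.7 CPM on CD. The monocyte range lay above pop1, pop2 and pop3 and overlapped that of pop4. Pop4 had 22.5 and 22.7 CPM on HFD, against 33.1 and 15.1 CPM on CD. Spn was higher in monocytes by a log2 difference of 4.22 (SE 0.75, adjusted p = 0.000240) over pop1, 3.09 (SE 0.70, adjusted p = 0.00211) over pop2 and 3.68 (SE 0.72, adjusted p = 0.000896) over pop3. Over pop4 the difference of 1.10 (SE 0.62, adjusted p = 0.298) was not called in edgeR, although it passed in a fit of the monocyte and pop4 groups alone (1.11, adjusted p = 0.0227).

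The size of the Spn differences moved with single libraries. Over pop1 the difference was 5.53 without the pop1 HFD replicate 2. Over pop2 it was 4.27 without the pop2 CD replicate 7 and 3.74 without the pop2 HFD replicate 2, all called. In the HFD groups alone Spn was not called over pop1 (3.02), pop2 (1.90) or pop3 (2.84). With the receptor background as a covariate, which ran against Spn over the 9 monocyte libraries too (r = -0.617), it was not called over pop2 (2.75, adjusted p = 0.175) or pop3 (3.40, adjusted p = 0.0504). T cells and NK cells also carry CD43. The 10 T cell genes summed to 3.49 to 248 CPM in monocytes, 170 to 283 CPM in pop4 and 14.9 to 186 CPM in pop1 to pop3. In pop4 most of that sum was Cd2, at 202 CPM, whereas Cd3e averaged 0.193 CPM. In monocytes Cd3g averaged 40.4 CPM, Cd3d 25.3 CPM and Cd3e 9.24 CPM, and each of these was at 0 in at least 1 library. The 9 NK cell genes summed to 0.755 to 122 CPM in monocytes and 2.76 to 25 CPM in adipose libraries. In monocytes Gzma averaged 19.8 CPM, and 5 of the 9 genes averaged under 1 CPM. Their part in the Spn result was not tested.

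Of the 10 other genes in the list of sialomucins and adhesion, 8, 9, 9 and 4 were higher in monocytes than in pop1 to pop4, and none lower. Itgal, the alpha chain of the integrin LFA-1, averaged 446 ± 60.8 CPM in monocytes and 5.41 to 32.2 CPM in the adipose populations, and was called in all 4 comparisons. Selplg, a selectin ligand, and Msn, a linker of such receptors to actin, were likewise higher against all 4. Ezr, a relative of Msn, was higher in monocytes (145 ± 27.1 CPM) than in pop1 to pop3, while pop4 held 246 ± 35.8 CPM, a difference that was not called (log2 -0.71, adjusted p = 0.337, edgeR).

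Ace encodes angiotensin-converting enzyme, the membrane peptidase that makes angiotensin II and degrades bradykinin. It lies on the plus strand of chr11:105967945-105989964. A predicted gene on the other strand, Gm11651, overlaps it, and their reads cannot be told apart where counting by strand is not stated. The monocyte levels of Ace had a minimum of 29.7, a median of 62.5 and a maximum of 113 CPM. Pop1 held 0.550 and 1.62 CPM on HFD, against 2.55 and 2.04 CPM on CD, and pop2 3.36 and 2.33 CPM on HFD, against 0.882 and 0.872 CPM on CD. Pop3 had 6.85 and 0.910 CPM on HFD, against 4.26 and 15.1 CPM on CD, and pop4 1.48 and 0.617 CPM on HFD, against 0.652 and 3.36 CPM on CD. All monocyte libraries were above all adipose libraries. The log2 difference was 5.38 (SE 0.78, adjusted p = 3.01e-05) over pop1, 5.37 (SE 0.79, adjusted p = 3.14e-05) over pop2, 3.43 (SE 0.70, adjusted p = 0.00121) over pop3 and 5.50 (SE 0.79, adjusted p = 5.18e-05) over pop4. The value over pop3 was 4.05 without the pop3 CD replicate 8 and 4.48 without the pop3 HFD replicate 2, and that over pop4 was 6.30 without the pop4 CD replicate 8, all of them called. Over pop3 the call was lost in the CD groups alone (2.43) and in the HFD groups alone (4.41).

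No other tested gene of angiotensin and kinin signalling was called higher in monocytes. Of the list of 12, 7 had enough counts to be tested. In each comparison 1 gene of the list was higher in monocytes, which was Ace, and 1, 4, 3 and 0 were lower than in pop1 to pop4. Agt, the precursor of angiotensin, averaged 0.136 CPM in monocytes and 4.41 CPM in pop2, and was lower in monocytes than in pop2 and pop3. Mme, the peptidase neprilysin, averaged 0.275 CPM in monocytes and 5.29 CPM in pop3, and was likewise lower than in pop2 and pop3. Ece1, a related endothelin-converting peptidase, averaged 40.0 ± 14.2 CPM in monocytes and 21.1 to 49.9 CPM in the adipose populations, with no call.

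Pou2f2 encodes Oct-2, an octamer-binding transcription factor best known from B cells, and lies on the minus strand of chr7:25091115-25132460. It was called between monocytes and pop4 and between no other adipose population and monocytes. The monocyte libraries had a minimum of 28.2, a median of 37.0 and a maximum of 73.8 CPM. Pop1 held 57.4 and 73.7 CPM on HFD, against 34.4 and 34.6 CPM on CD, and pop2 37.4 and 35.4 CPM on HFD, against 33.9 and 20.9 CPM on CD. Pop3 had 59.3 and 18.6 CPM on HFD, against 49.7 and 11.3 CPM on CD. The monocyte range overlapped pop1, pop2 and pop3 and lay above pop4. Pop4 was low, at 2.09 and 8.40 CPM on HFD, against 7.18 and 5.65 CPM on CD. The log2 difference of monocytes was 0.02 (SE 0.46, adjusted p = 0.985) over pop1, 0.60 (SE 0.47, adjusted p = 0.316) over pop2 and 0.48 (SE 0.47, adjusted p = 0.464) over pop3, none of them called in edgeR. Over pop4 it was 3.05 (SE 0.55, adjusted p = 0.000508), and 3.71 without the pop4 HFD replicate 3. In the HFD groups alone that call was lost (3.49, adjusted p = 0.0586).

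B cell transcripts were measured beside Pou2f2. The 10 B cell genes summed to 19.7 to 126 CPM in monocytes, 8.53 to 32.8 CPM in pop1, 3.97 to 57.5 CPM in pop2, 47.5 to 145 CPM in pop3 and 6.78 to 117 CPM in pop4. Cd79b held most of the monocyte sum, at 66.5 CPM, and 6 of the 10 genes averaged under 1 CPM in monocytes. The part of B cells in the Pou2f2 levels was not tested. Across the 16 adipose libraries, r with the receptor background was 0.646 for Pou2f2, -0.640 for Spn, -0.490 for Treml4 and Ceacam1, 0.448 for Ace, 0.179 for Eno3 and -0.0669 for Adgre4, a description over libraries that share tissue. Pou2f1, which encodes the related factor Oct-1, averaged 26.9 ± 17.1 CPM in monocytes and 26.5 to 66.4 CPM in the adipose populations, with no call. Pou2af1, the B cell coactivator of both factors, averaged 0.127 CPM in monocytes and 1.71 CPM in pop3, and was lower in monocytes than in pop3. The annotation places a microRNA gene, Mir6537, inside Pou2f2 on the same strand, so that reads of both cannot be told apart there.

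Eno3 encodes beta-enolase, the muscle form of the glycolytic enzyme that makes phosphoenolpyruvate, and lies on the plus strand of chr11:70657176-70662513. Its libraries scattered widely within most groups. In monocytes it had a minimum of 4.23, a median of 25.3 and a maximum of 49.2 CPM. Pop1 held 37.4 and 77.9 CPM on HFD, against 2.55 and 8.61 CPM on CD, and pop2 27.5 and 1.16 CPM on HFD, against 46.3 and 22.8 CPM on CD. Pop3 had 0.945 and 1.14 CPM on HFD, against 29.8 and 1.13 CPM on CD, and pop4 3.45 and 5.43 CPM on HFD, against 0.652 and 0.134 CPM on CD. Monocyte libraries overlapped every adipose population. The log2 difference was 0.45 (SE 0.80, adjusted p = 0.683) over pop1 and 0.14 (SE 0.79, adjusted p = 0.904) over pop2, neither called in edgeR. It was 2.60 (SE 0.91, adjusted p = 0.0394) over pop3 and 4.18 (SE 1.0, adjusted p = 0.00689) over pop4.

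Both Eno3 calls depended on single libraries. The call over pop3 was lost on leaving out the monocyte CD replicate 6 (2.55) or 7 (2.5), the monocyte HFD replicate 1 (2.54) or 2 (2.51), the pop3 CD replicate 8 (2.18), or the pop3 HFD replicate 2 (2.55) or 3 (2.68). Without the pop3 CD replicate 7 it was 4.5 and called. The pop3 difference was not called in the CD groups alone (0.96), in the HFD groups alone (4.23) or with the background as a covariate (2.68). Over pop4 the call was lost without the pop4 CD replicate 8 (3.84, adjusted p = 0.0614), without the pop4 HFD replicate 2 (4.04, adjusted p = 0.0600) and in the HFD groups alone (2.17), and the value was 4.90 without the pop4 CD replicate 7.

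Skeletal muscle is the best known site of Eno3. The 10 muscle genes summed to 19.5 to 35.0 CPM in monocytes and 2.43 to 35.2 CPM in adipose libraries. In monocytes Tnni2 averaged 21.9 CPM and Mylpf 1.73 CPM, and the other 8 averaged under 1 CPM. The part of muscle RNA in the Eno3 levels was not tested. Per kilobase, Eno1, the enolase of most tissues, stood at 35.3 CPM in monocytes, Eno3 at 16.9 CPM and Eno2, the neuronal form, at 0.0553 CPM. Eno1 was higher in monocytes (62.1 ± 7.63 CPM) than in pop1, pop2 and pop3 (21.8 to 23.7 CPM), and was not called over pop4 (50.6 ± 10.6 CPM). Genes with near copies in the genome, Eno1 and Gapdh among them, may have lost reads in counting, so this order is uncertain. Gapdh averaged 2.57 CPM in monocytes. Of 10 genes of enolases and lower glycolysis, 4, 4, 3 and 2 were higher in monocytes than in pop1 to pop4, and 0, 0, 1 and 2 lower.

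Among the adipose populations, most calls of these genes involved pop4. Relative to pop1, pop4 held more Spn (log2 3.12, SE 0.74, adjusted p = 0.00736) and Adgre4 (1.82, SE 0.50, adjusted p = 0.0176) and less Pou2f2 (-3.03, SE 0.58, adjusted p = 0.00121) and Eno3 (-3.73, SE 1.03, adjusted p = 0.0183). These 4 of 7 calls compare with 16.1% of all tested genes. Relative to pop2, pop4 held less Pou2f2 (-2.44, SE 0.57) and Eno3 (-4.04, SE 1.04), 2 of 7 against 21.2% of all genes, and Spn at 1.99 was not called (adjusted p = 0.0505). Relative to pop3, pop4 held more Spn (2.58, SE 0.73, adjusted p = 0.0377) and less Pou2f2 (-2.57, SE 0.57, adjusted p = 0.00943), 2 of 7 against 6.57%. Pop3 held more Adgre4 than pop1 (2.04, SE 0.50, adjusted p = 0.0428), 1 of 7 against 1.59%. No member was called between pop2 and pop1 or between pop3 and pop2 in edgeR, with backgrounds of 0.466% and 1.03%. At an unadjusted p under 0.05, 1 and 2 members passed in these, where 1664 and 2078 of all 16961 tested genes passed. DESeq2 called none between pop2 and pop1 and 2 between pop3 and pop2 (Ace and Eno3). The share of all genes that DESeq2 called there is not given here.

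Each of these calls was lost in at least 1 setting, and most of them on leaving out 1 library. With the receptor background as a covariate, no member was called between pop4 and another adipose population, nor between pop3 and pop1. For pop4 over pop1 the values were then 2.77 for Spn, 0.98 for Adgre4, -2.92 for Pou2f2 and -3.59 for Eno3. The background summed to 79.5 to 190 CPM in pop4 libraries and 194 to 683 CPM in those of pop1 to pop3. A fit with it can therefore hardly tell population from background. In fits of the groups compared alone, no member was called for pop3 over pop1, pop4 over pop2 or pop4 over pop3, and for pop4 over pop1 Spn (3.05) and Adgre4 (1.74) lost their calls. The Spn difference of pop4 over pop3 was lost on leaving out any 1 of the 8 libraries of the pair, with values between 2.27 and 2.95. That of Pou2f2 was lost without the pop3 CD replicate 7 (-1.83) or HFD replicate 2 (-2.03), or the pop4 CD replicate 8 (-2.48) or HFD replicate 2 (-2.22). Without the pop4 HFD replicate 3, Pou2f2 in pop4 was at -3.67 over pop1, -3.07 over pop2 and -3.21 over pop3. The Adgre4 call of pop3 over pop1 was lost in 17 of 25 fits that left out 1 library, at 1.51 to 2.23. Without the pop1 HFD replicate 2 it was 3.19, and pop4 over pop1 was 4.42 for Spn and 2.99 for Adgre4, while pop2 over pop1 was called for Adgre4 (2.40).

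In every one of the 25 fits that left out 1 library, pop4 kept its calls of Spn and Pou2f2 over pop1 and of Pou2f2 over pop2. Adgre4 for pop4 over pop1 lost its call without the pop1 CD replicate 8 (1.69), the pop1 HFD replicate 3 (1.42), the pop4 CD replicate 8 (1.61) or the pop4 HFD replicate 2 (1.68). Eno3 for pop4 over pop1 lost it without the pop1 CD replicate 8 (-3.14), the pop1 HFD replicate 3 (-3.41), the pop4 CD replicate 8 (-3.37), or the pop4 HFD replicate 2 (-3.57) or 3 (-3.89). For pop4 over pop2, Eno3 lost it without the pop2 HFD replicate 2 (-2.21), the pop4 CD replicate 8 (-3.67) or the pop4 HFD replicate 2 (-3.87). Without the pop4 CD replicate 7, Eno3 was at -4.43 over pop1 and -4.72 over pop2. Spn for pop4 over pop2 passed without the pop1 HFD replicate 2 or 3 (2.02 each), the pop2 CD replicate 7 (3.09) or the pop2 HFD replicate 2 (2.63), and Adgre4 passed without that last library (1.54).

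The order of mean levels differed by gene. For Treml4 and Ceacam1 it ran monocytes, pop4, pop3, pop2 and pop1, and no adipose pair was called. For Ace, pop3 at 6.77 ± 6.04 CPM came next after monocytes at 62.9 ± 26.5 CPM, before pop2, pop1 and pop4 at 1.86, 1.69 and 1.53 CPM, and no adipose pair was called in edgeR. DESeq2 called Ace higher in pop3 than in pop1 (1.95) and lower in pop4 than in pop3 (-2.24), with no share of all genes given here. Adgre4 ran monocytes (638 ± 101 CPM), pop3 (291 ± 220 CPM), pop4 (208 ± 87.7 CPM), pop2 (161 ± 109 CPM) and pop1 (76.5 ± 66.2 CPM). For Spn, pop4 (23.4 ± 7.43 CPM) followed monocytes (48.2 ± 11.7 CPM), then pop2 (8.53 ± 10.0 CPM), pop3 (4.87 ± 4.23 CPM) and pop1 (3.90 ± 5.66 CPM). Pou2f2 had its highest mean in pop1, then monocytes (45.7 ± 15.7 CPM), pop3 (34.7 ± 23.4 CPM), pop2 (31.9 ± 7.46 CPM) and pop4 (5.83 ± 2.73 CPM). Eno3 likewise had pop1 first (31.6 ± 34.4 CPM), then monocytes (26.6 ± 14.2 CPM), pop2 (24.4 ± 18.5 CPM), pop3 (8.26 ± 14.4 CPM) and pop4 (2.42 ± 2.48 CPM). Errors are SD, with n = 9 for monocytes and 4 for each adipose population.

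The diet comparison asked whether the same genes differed between HFD and CD mice within a population. No member was called within any population in edgeR, where the backgrounds were 0.0059% of genes in monocytes, 0.436% in pop1, 4.19% in pop2, 0.0943% in pop3 and 0.0354% in pop4. At an unadjusted p under 0.05 the members that passed numbered 0, 3, 2, 3 and 1. Of all 16961 tested genes, 1169, 1887, 2878, 1873 and 1186 passed there, in the same order. DESeq2 called 1 each in pop1 (Adgre4, adjusted p = 0.0435), pop2 (Spn, adjusted p = 0.0131) and pop3 (Eno3, adjusted p = 0.0348), and 0 in monocytes and pop4. The share of all genes that DESeq2 called is not given here. The HFD libraries of Adgre4 lay below the CD libraries in each adipose population, with log2 differences of -2.33 (SE 0.72), -1.7 (SE 0.71), -1.99 (SE 0.71) and -0.76 (SE 0.69) in pop1 to pop4. With 2 libraries against 2, both lay lower for 26.5%, 18.5%, 24.3% and 21.1% of all genes. In monocytes Adgre4 averaged 704 ± 91.1 CPM on HFD and 604 ± 94.3 CPM on CD (log2 0.22, SE 0.48), with overlap. That overlap was with the control libraries titled CD (659 to 714 CPM). Against those titled CD-CD (493 to 571 CPM), all HFD libraries (599 to 763 CPM) were higher. How many of all genes had such a gap is not given here. Without the pop1 HFD replicate 2 the pop1 difference was -4.61 and called (adjusted p = 0.0166), and without the pop2 HFD replicate 2 that of pop2 was -3.64 and called (adjusted p = 0.0166).

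A contrast over the mean of the 4 adipose populations was added after this pattern had been seen, and is no independent evidence of it. There Adgre4 was lower on HFD, at 93.3 CPM on HFD and 276 CPM on CD (log2 -1.7, SE 0.35, adjusted p = 0.00649). Spn was higher, at 13 CPM on HFD and 7.35 CPM on CD (1.81, SE 0.50, adjusted p = 0.0386), which makes 2 of 7 members where 5.34% of all genes were called. The log2 diet differences of Spn were 2.68, 2.65 and 2.02 in pop1 to pop3. In pop4, which held the most Spn of the 4, the difference was -0.09 (22.6 CPM on HFD, 24.1 CPM on CD). The contrast averages such log2 differences, so its value is above the log2 ratio of the 2 mean levels. The Adgre4 call was lost in a fit of the adipose groups alone (-1.74, adjusted p = 0.0635). With counts summed over the populations for each title number, Adgre4 stood at 109 and 103 CPM on HFD, against 244 and 308 CPM on CD. These sums did not overlap, but their difference of -1.37 had an adjusted p of 0.296 in edgeR, in a fit that called 0% of 17806 genes. The Spn call was lost in the adipose groups alone (1.77), with no filter on low counts (1.84), with the background covariate (1.67), in the summed counts (0.61) and without the pop2 HFD libraries (1.69). It was also lost in 13 of 25 fits that left out 1 library, at 1.18 to 1.99, the lowest without the pop1 HFD replicate 2. Treml4, at 1.94 (SE 0.67, adjusted p = 0.0989), passed without the pop2 CD replicate 7 (2.96) and in DESeq2.

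Whether diet acted differently on Adgre4 in blood and in adipose tissue was tested as a difference of differences. The monocyte controls held libraries titled CD and CD-CD and the adipose controls CD-CD alone, so title series enters both sides unequally. The log2 diet difference of monocytes minus the mean of those in the 4 adipose populations was 1.92 (SE 0.58, adjusted p = 0.238, edgeR), and 0 members were called, at a background of 0.0884%. At an unadjusted p under 0.05, 1 member passed, where 1732 of all 16961 tested genes passed. Adgre4 was called without the pop1 HFD replicate 2 (2.49) or the pop2 HFD replicate 2 (2.39).

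**Figure D3:**
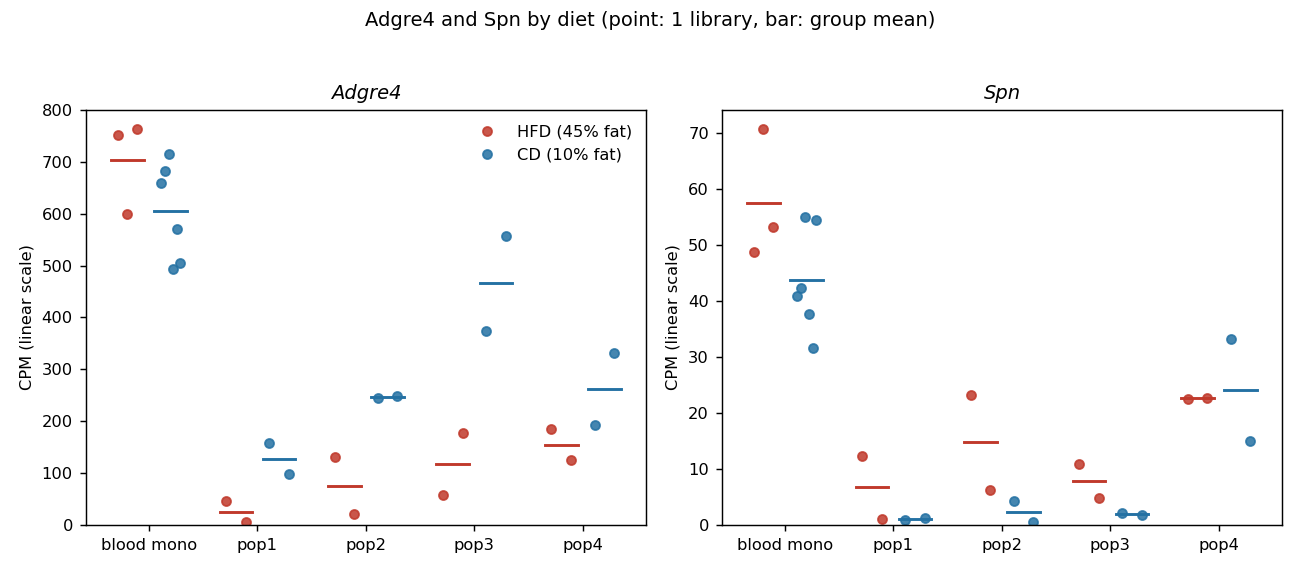
CPM of Adgre4 and Spn on linear axes by population, HFD left of CD; each point is 1 library and bars are group means. In each adipose population both HFD points of Adgre4 lie below both CD points, and the pop4 points of Spn lie between 15.1 and 33.1 CPM.

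Related genes were read in the same added contrast. Adgre1 was lower on HFD over the mean of the 4 populations (log2 -0.54, adjusted p = 0.00661, edgeR), and Adgre5 was not called. Of the 26 other non-classical genes, 1 was higher (Cebpb) and 6 were lower (Fcgr4, Cd36, Hes1, Apoc2, Lair1 and Gngt2) on HFD. Among the classical genes Fn1 was lower (-1.08), and none was higher. Timd4, the marker of the Tim4 gates, was also lower on HFD in this contrast (-3.37, adjusted p = 0.00332), at 103 CPM on HFD and 275 CPM on CD. The contrast weighs the log2 differences of the 4 populations equally, the Tim4- ones included, so -3.37 is not the ratio of these means. The marker's fall within the Tim4+ populations is not given by it. The part of Timd4 in the diet values of the members was not tested.

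Within the monocytes, the control libraries were compared by title series. Of the control libraries, those titled CD averaged 142 CPM and those titled CD-CD 71.2 CPM for Treml4. The means were 68.3 CPM and 35.6 CPM for Ace, 308 CPM and 189 CPM for Ceacam1, and 685 CPM and 523 CPM for Adgre4, in the same order. They were 46.1 and 41.2 CPM for Spn, 43.7 and 33.7 CPM for Pou2f2, and 26.7 and 32.9 CPM for Eno3, which ran the other way. Libraries of Treml4 overlapped, with the CD replicate 3 at 70.5 CPM and the CD-CD replicate 7 at 83.2 CPM. None of the members was called between the title series in edgeR, nor was any of the 10862 genes tested (0%), and Adgre4 had an adjusted p of 0.436 (log2 0.35, SE 0.08). At an unadjusted p under 0.05, Treml4, Ace, Ceacam1 and Adgre4 passed, and the share of all genes that passed there is not given here. DESeq2 called Adgre4 alone among the members (adjusted p = 0.00637). Of 13 lists of cell type genes, 3 had sums that did not overlap between the CD and CD-CD titles, and the others overlapped. With 3 libraries against 3 such a gap can arise by chance, and its share over all genes is not given here. Dendritic cell genes summed to 311 to 567 CPM in libraries titled CD and 801 to 901 CPM in those titled CD-CD. T cell genes summed to 3.49 to 61.5 CPM under CD and 71.1 to 248 CPM under CD-CD, and classical monocyte genes to 9795 to 11366 CPM under CD and 8469 to 9130 CPM under CD-CD. Their part in the members' values was not tested. Without the monocyte libraries titled CD, Adgre4 (1.40, adjusted p = 0.0553) and Eno3 (2.69) lost their calls over pop3. Without those titled CD-CD, Eno3 lost its call over pop3 (2.5).

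Ace and Adgre4 ran together over the 9 monocyte libraries, with Pearson r = 0.931 and Spearman rho = 0.933 on log2(CPM + 1). The two-sided exact permutation p of r was 0.000474, and 0.00995 after adjustment over 21 pairs of members (adjusted p of rho 0.0157). Without the 2 libraries farthest from the median of Ace, r was 0.794, and over the 6 CD libraries it was 0.935. The 3 libraries titled CD-CD stand at the low end of both genes, and a series of 3 libraries is too small for a value of its own, so the relation cannot be told apart from the title series. Of the 21 pairs, 16 had a positive r, 3 passed at an unadjusted p under 0.05 and 1 after adjustment, with a median r of 0.330. Ceacam1 and Adgre4 (r = 0.760) and Ace and Pou2f2 (r = 0.712) had adjusted p of 0.141 and 0.244 in exact permutation tests. Spn and Eno3 had the lowest r, -0.565 (exact permutation, adjusted p = 0.339).

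**Figure D4:**
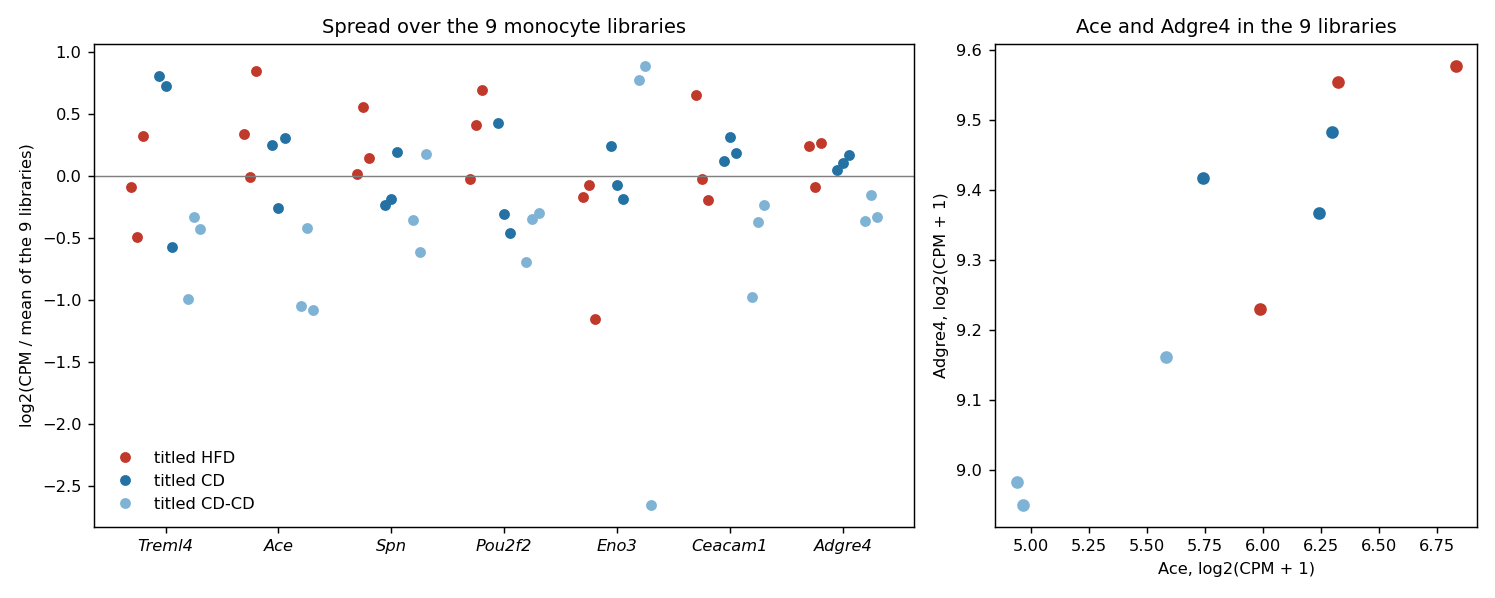
Left, each gene's log2 ratio of CPM to its mean over the 9 monocyte libraries, by title series; right, Ace against Adgre4 as log2(CPM + 1), 1 point per library. The CD-CD libraries lie below the mean for Treml4, Ace, Pou2f2, Ceacam1 and Adgre4, where some library of another title lies below it too. Eno3 has 1 CD-CD library, at 4.23 CPM, far under the others.

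Other genes known from non-classical monocytes moved both ways. Of 26 such genes, all tested, 12, 10, 9 and 9 were higher and 2, 1, 2 and 3 lower in monocytes than in pop1 to pop4, with median log2 differences of 1.32, 0.98, 0.28 and 0.32. Cx3cr1, the fractalkine receptor, averaged 276 ± 80.7 CPM in monocytes and 2.98 to 53.2 CPM in the adipose populations, and was called against all 4. Nr4a1 averaged 128 ± 36.1 CPM in monocytes and 8.20 to 30.5 CPM in the adipose populations, and was called against pop1 to pop3 but not pop4 (log2 2.36, SE 0.83, adjusted p = 0.0693, edgeR). Cebpb, a transcription factor that non-classical monocytes need, was higher against all 4, at 373 ± 94.6 CPM in monocytes and 101 to 172 CPM in the adipose populations. S1pr5, a receptor for egress from bone marrow, averaged 21.7 ± 19.6 CPM in monocytes and 0.247 to 1.80 CPM in the adipose populations, and was also called against all 4. Lyn, Hes1, Itgal, Apoc2 and Gngt2 were higher in each comparison too. Cd36, a scavenger receptor, was lower against all 4, at 109 ± 36.9 CPM in monocytes and 1276 to 1813 CPM in the adipose populations. Itgax was higher in monocytes than in pop1 and pop2 and lower than in pop4, and Klf2, Klf4 and Notch2 were called in none of the 4.

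Genes of classical monocytes were higher in the same blood libraries. Of 15 such genes, 12, 12, 10 and 11 were higher and 0, 0, 1 and 0 lower in monocytes than in pop1 to pop4, with median log2 differences of 5.88, 4.04, 3.90 and 5.76. Ly6c2, Chil3, Vcan, Mmp8, Plac8, Ms4a4c, Hp and Fcgr1 were among those higher against all 4. Per kilobase, Plac8 stood at 1005 CPM, Ly6c2 at 628 CPM and Ccr2 at 597 CPM in monocytes, against 184 CPM for Adgre4, 73.6 CPM for Cx3cr1, 71.8 CPM for Ceacam1 and 60.4 CPM for Treml4. The blood libraries thus held transcripts of both kinds of monocyte, and the share of each kind was not measured. The 8 red cell genes summed to 472 to 1654 CPM in monocytes and 2.74 to 756 CPM in adipose libraries. Their part in the results was not tested.

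The genes most like each member over the 25 libraries, by Pearson r of log2(CPM + 1), are given as a description, since these libraries share tissue and depth. For Treml4 they were Chil3 (r = 0.974), Ly6i (0.967) and Mmp8 (0.961). Ace was closest to Pabpc1l (0.944), Mmp8 (0.940) and Cd177 (0.937), and Ceacam1 to Limd2 (0.936), Sorl1 (0.909) and Treml4 (0.895). Adgre4 was closest to Filip1l (0.943), C920021L13Rik (0.914) and Rsu1 (0.913), and Spn to Trex1 (0.898), Borcs5 (0.898) and Abr (0.897). For Pou2f2 the genes were Sh3bp5 (0.857), F13a1 (0.832) and Oas2 (0.826). Eno3 had no gene above r = 0.745, the value of Ift81, followed by Zhx1 (0.722) and 2410006H16Rik (0.684). Over the 9 monocyte libraries alone, the closest were Fabp4 for Treml4 (0.911), 4930526I15Rik for Ace (0.967), Srsf6 for Spn (0.955), Slfn5 for Pou2f2 (0.944), Apbb3 for Eno3 (0.932), Asna1 for Ceacam1 (0.936) and Tmtc3 for Adgre4 (0.956). Each is the highest r among all tested genes over only 9 libraries, a choice that can give such values by chance. 4930526I15Rik averaged only 1.13 CPM in monocytes. Across the 16 adipose libraries, r between members ran from -0.527 for Pou2f2 and Adgre4 to 0.577 for Treml4 and Ceacam1, and was not tested. Treml4 held 3 counts or fewer in 8 of these 16 libraries.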

How the data were processed

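Each library held RNA of 200 sorted cells, amplified as cDNA. The deposited values are raw counts per RefSeq gene model, per the labels and the file headers, which also give each model's length and copies, values of another kind that the authors took from the annotation. Per the submitters' processing notes, STAR 2.5.3a, HOMER and mm10 were used. Strand and the handling of reads with several matches are not given in the sources used here. Groups came from the labels. Genes passing filterByExpr (16961 of 24537) were fitted with edgeR 4.0.16 (R 4.3.3, limma 3.58.1) by quasi-likelihood, with TMM factors of 0.893 to 1.15, 10 group means and 15 residual degrees of freedom. The common biological coefficient of variation was 0.749. Differences weigh both diets equally, so they can differ from the ratio of means over libraries. Adjusted p-values are Benjamini-Hochberg over all tested genes, with a threshold of 0.05. CPM were scaled by TMM, correlations used log2(CPM + 1), and levels between genes were compared per kilobase. DESeq2 1.42.0, other scalings, filters, group sets and left-out libraries were alternatives. The named genes were the 7 members, genes of their families and of marker lists, and the 3 most correlated genes of each member. The members and lists were chosen with earlier results of these data known. Promoter windows came from RefSeq (GRCm38.p6). Some genes of the marker lists are not reported here by name.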

Additional observations from a re-analysis of the deposited data

Results flagged for a closer look

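Of the 7 genes in the 6 CD monocyte libraries, Pou2f2 had its highest library, at 61.2 CPM, far from the other 5 (28.2 to 37.0 CPM); such a gap arises by chance in about 1 in 20 groups, and 7 groups were tested. Ace had a log2 difference of HFD over CD of 1.68 in pop2, where both HFD libraries were higher (unadjusted p = 0.121, edgeR). In pop1 it was -1.08 (unadjusted p = 0.298, edgeR), where both were lower, as was so for 26.5% of all tested genes. The share of genes with both higher in pop2 is not given here. Counts of Ace in these libraries ran from 4 to 17, and the difference between the populations was not tested.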

How the results depend on the processing

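Changes in the number of members called, out of 7, by more than 1.5 times come first, and no direction of a called value reversed under any alternative run. Without the filter on low counts, 0 were called for pop3 over pop1 and 1 in the adipose mean of HFD over CD. With the background covariate, 3 were called for monocytes over pop2 and 3 over pop3, 0 for pop3 over pop1, 0 for pop4 over each of pop1, pop2 and pop3, and 1 in the adipose mean. In fits of the groups compared alone, 0 were called for pop3 over pop1, 2 for pop4 over pop1, 0 for pop4 over pop2, 0 for pop4 over pop3 and 0 in the adipose mean. In the CD groups alone, 3 were called for monocytes over pop3, 1 for pop4 over pop1, 0 for pop4 over pop2 and 0 for pop4 over pop3. In the HFD groups alone, 1 was called for monocytes over pop3, 1 for monocytes over pop4, and 0 for pop3 over pop1 and for pop4 over pop1, pop2 and pop3. Without the pop2 HFD libraries, 1 was called for pop2 over pop1 and 1 in the adipose mean. DESeq2 called 2 for pop3 over pop1, 2 for pop3 over pop2, 1 each for diet in pop1, pop2 and pop3, and 1 between monocyte title series. In the summed counts 0 were called for diet. Smaller changes were 7 called for monocytes over pop4 in those groups alone (gaining Spn), 4 over pop1 and 4 over pop2 in the HFD groups alone (losing Spn), and 3 each under DESeq2 for pop4 over pop2 (gaining Spn), pop4 over pop3 (gaining Ace) and the adipose mean (gaining Treml4). Without the pop2 HFD libraries 4 were called for monocytes over pop2 and 3 for pop4 over pop2, and for monocytes over pop3 there were 4 without the libraries titled CD and 5 without those titled CD-CD. The cause was not tested, except that fewer libraries entered the fits of part of the groups. Apart from the summed counts, the share of all genes called under these alternatives is not given here.

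Leaving out 1 library gave 5 members called for monocytes over pop1 and over pop2, 4 to 6 over pop3 and 5 to 6 over pop4. It gave 0 to 1 for pop2 over pop1 and pop3 over pop1, 2 to 4 for pop4 over pop1, 0 for pop3 over pop2, 1 to 3 for pop4 over pop2 and 0 to 2 for pop4 over pop3. For diet it gave 0 in monocytes, pop3 and pop4, 0 to 1 in pop1 and pop2, 0 to 1 for the difference of differences and 1 to 3 in the adipose mean, and for the title series 0.

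Samples with the same title number did not deviate together: over 40 pairs across populations r ran from -0.0393 to 0.0734 (the 24 adipose pairs hold 12 distinct values, since the deviations of 2 replicates mirror each other), and over 3 pairs of HFD and CD monocytes from -0.0348 to 0.0229. With a replicate block on these numbers, 3 members were called for monocytes over pop4 (Ceacam1 at 2.1, adjusted p = 0.0516 in edgeR, Eno3 and Adgre4 were lost), 4 for monocytes over pop3 (Eno3 and Adgre4 were lost), 0 for pop3 over pop1 and 0 for pop4 over pop3. Depth limits the adipose values of Treml4, which were at or under 3 counts in 8 of 16 libraries.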
